A study of Mus musculus with 19 samples.

Results

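Gene expression was compared between macrophages and the remaining cells of the cochlea, which holds the sensory epithelium for hearing, in old adult mice. RNA sequencing libraries of 8 samples were used, 4 of old macrophages and 4 of old nonmacrophages, out of 19 samples in the series, which also holds young adult cochleae, cochlear substructures and 1 unsorted cochlea. The 8 samples were chosen by their labels, and no measured value entered that choice. All 8 came from mice of 12 to 14 months that were heterozygous for a GFP knock-in at Cx3cr1 (CX3CR1 GFP/+), so every mouse, in both groups, had 1 intact copy of the gene. Dissociated cells of the whole cochlea were sorted by flow cytometry. Cells with GFP made up the macrophage samples and cells without it the nonmacrophage samples, and each sample came from 1 mouse per the labels. The labels do not say whether a macrophage and a nonmacrophage sample came from the same animal. The GFP reports the Cx3cr1 promoter, so it marks any cell in which that promoter is active, and the nonmacrophage sort is a mixture of all other dissociated cells.

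Macrophages of the cochlea are resident phagocytes that lie among the spiral ganglion neurons and their axons, along the vessels of the stria vascularis and in the spiral ligament. Like other tissue macrophages they depend on signals through the receptor CSF1R, read out neuronal fractalkine through CX3CR1, engulf dying cells and debris through complement, Fc and scavenger receptors, degrade them in lysosomes and present antigen on MHC class II. The cells they live among are neurons, myelinating Schwann cells and oligodendrocytes, satellite glia, fibrocytes, vessel cells, bone cells, and the sensory and supporting epithelium.

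Values are given as normalized reads, which are reads divided by a factor for each library, and in the order of replicates 1, 7, 12 and 17 for old macrophages and 10, 11, 18 and 19 for old nonmacrophages. They are not divided by gene length, so they compare samples for 1 gene and not genes with each other. The old macrophage libraries held 50.6 to 71.6 M reads and the old nonmacrophage libraries 51.2 to 64.4 M, and reads were found for 16750 to 17282 and 17662 to 17708 genes. A gene without reads in a library could have had up to 3 reads there, which is 1.38 to 2.06 normalized reads and covers counting error only. Folds given as at least a value divide the mean of the higher group by this floor. The spread between libraries of that group does not enter them. Log2 differences are old macrophages minus old nonmacrophages, fitted with limma to log2(normalized reads + 1), which understates the difference of low genes. A gene is said to have risen or fallen where its adjusted p was under 0.05, and to have done so beyond 2-fold where a second limma test against a 2-fold difference also gave an adjusted p under 0.05.

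Several libraries stood apart from the others of their group. Macrophage replicate 17 had the highest Mbp value of its group and the lowest values of many macrophage genes, and the summed oligodendrocyte genes were 2538, 3241, 2852 and 7153 normalized reads in old macrophages, against 146192, 205304, 161913 and 228685 in old nonmacrophages. Of the 7153 normalized reads in replicate 17, 5496 were of the myelin gene Mobp. Replicate 17 was the highest macrophage library in 4 of 16 tested oligodendrocyte genes, and replicate 7 in 6. In Schwann cell and myelin genes, however, replicate 17 was the highest macrophage library in 19 of 24 tested members. The sums of that list were 185451, 190816, 246118 and 481156 normalized reads in old macrophages, against 2920380 to 4132400 in old nonmacrophages. Macrophage replicate 1 had the highest summed genes of the stria vascularis, with 181408, 80250.2, 71066 and 72032 normalized reads in old macrophages, against 230464, 103341, 164385 and 178356 in old nonmacrophages. Nonmacrophage replicate 11 had the highest MHC class II genes of its group, nonmacrophage replicate 19 the highest interferon-stimulated genes, nonmacrophage replicate 10 the highest smooth muscle genes and nonmacrophage replicate 18 the highest neutrophil genes. Values without these libraries stand beside the results that changed with them.

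The sort was first read from 5 markers. Old macrophages had far higher Cx3cr1, Csf1r and C1qa and far lower Mbp and Col1a1 than old nonmacrophages. Cx3cr1 (mm10, chromosome 9, 119901616 to 120069879), the fractalkine receptor whose promoter drove the GFP, had 9645, 9927, 8976 and 6383 normalized reads in old macrophages, against 32.0, 26.8, 64.0 and 102 in old nonmacrophages (log2 difference 7.43, SE 0.37, limma adjusted p = 2.0e-07). Csf1r (mm10, chromosome 18, 61100598 to 61132149), the receptor for the growth factors CSF1 and IL34, had 43633, 61252, 54047 and 36782 normalized reads in old macrophages, against 159, 193, 383 and 345 in old nonmacrophages (log2 difference 7.57, SE 0.28, limma adjusted p = 4.6e-08). C1qa (mm10, chromosome 4, 136895917 to 136898803), a chain of the first complement component, had 34154, 42894, 38102 and 26912 normalized reads in old macrophages, against 107, 155, 301 and 329 in old nonmacrophages (log2 difference 7.43, SE 0.33, limma adjusted p = 9.7e-08). For all 3 genes every macrophage library lay far above every nonmacrophage library, and replicate 17 was the lowest macrophage library. Mbp (mm10, chromosome 18, 82475146 to 82585637), the myelin basic protein, had 63488, 69124, 91315 and 222880 normalized reads in old macrophages, against 2530000, 3420000, 2890000 and 3510000 in old nonmacrophages (log2 difference -4.98, SE 0.34, limma adjusted p = 1.3e-06). It took 0.196 to 0.692% of the reads of old macrophage libraries and 7.63 to 9.93% of those of old nonmacrophage libraries, so it was lower in the macrophage sort but still well above 0. Fewer cells of a type and less RNA per cell cannot be told apart in sorted bulk RNA. Col1a1 (mm10, chromosome 11, 94936224 to 94953042), a chain of type I collagen, had 26.9, 7.62, 22.6 and 37.8 normalized reads in old macrophages, against 666, 589.8, 633 and 311 in old nonmacrophages (log2 difference -4.61, SE 0.46, limma adjusted p = 1.7e-05). The groups did not overlap for any of the 5 markers.

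**Figure D1:**
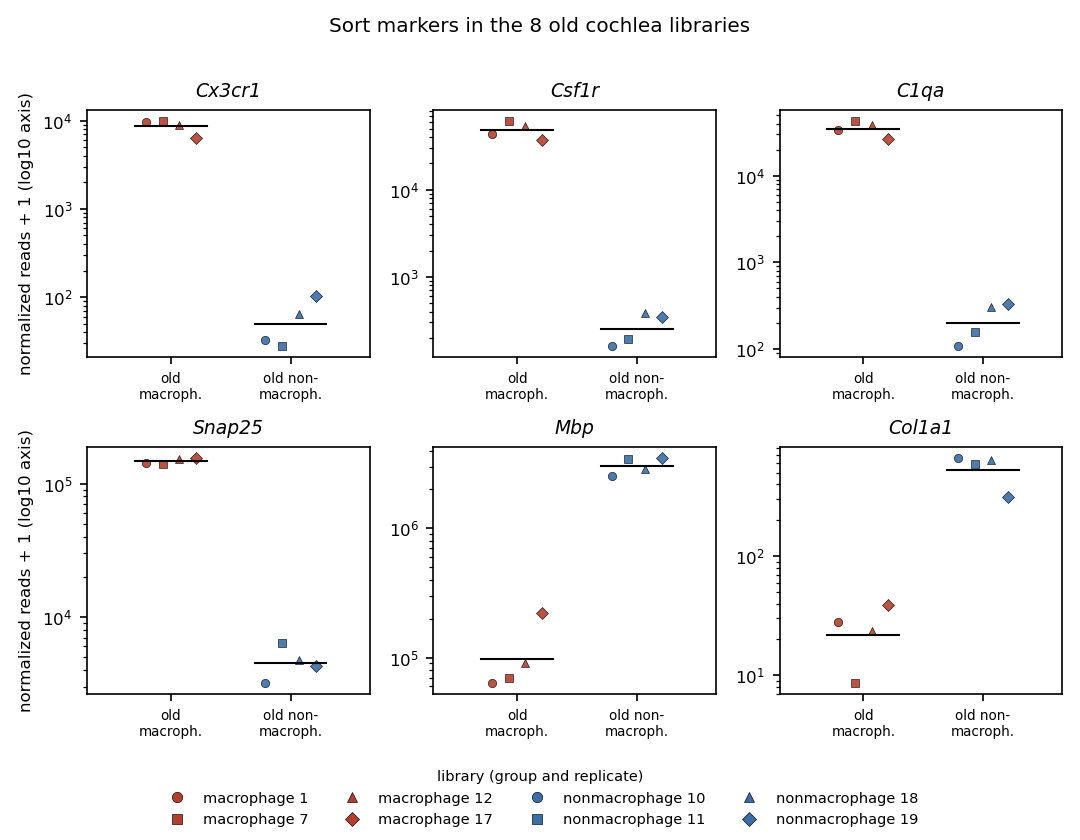
Normalized reads (log10 axis, 1 added) of the 5 sort markers and of Snap25 in each of the 8 libraries, with old macrophages left of old nonmacrophages in each panel and a bar at the mean of the logarithms. Cx3cr1, Csf1r, C1qa and Snap25 lie higher in every macrophage library, and Mbp and Col1a1 lie lower, with macrophage replicate 17 nearest to the nonmacrophages for Mbp.

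Across the transcriptome 10654 of 18272 tested genes (58.3%) passed the test, of which 4546 (24.9%) rose in old macrophages and 6108 (33.4%) fell. Beyond 2-fold 3353 genes (18.4%) passed, with 1573 (8.61%) higher and 1780 (9.74%) lower, and the 4 values of each group did not overlap in 9822 genes (53.8%), higher in 4291 (23.5%) and lower in 5531 (30.3%). The median log2 difference over all tested genes was -0.19, with 10th and 90th percentiles of -2.08 and 1.60. The median was -0.08 with quantile normalization, -0.12 with a common total and -0.05 in the edgeR test on whole reads, so small differences shift with the scaling or test. The balance of directions moved too, with 5110 genes higher and 4944 lower by edgeR and 5335 and 5377 by DESeq2. Beyond 2-fold it turned to 1660 higher and 1585 lower with quantile normalization, 1665 and 1625 with a common total, 1962 and 1767 by edgeR and 1725 and 1479 by DESeq2. A joint fit that also held the 6 young whole-cochlea libraries called 3431 of 18441 genes, 1705 higher and 1726 lower, and 913 beyond 2-fold. Counts of list members in the joint fit stand against these smaller numbers. Counts of list members in the main fit stand against the 24.9% of all genes that rose and the 33.4% that fell. The p-values measure the spread between mice and sorts as the labels give them.

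**Figure D2:**
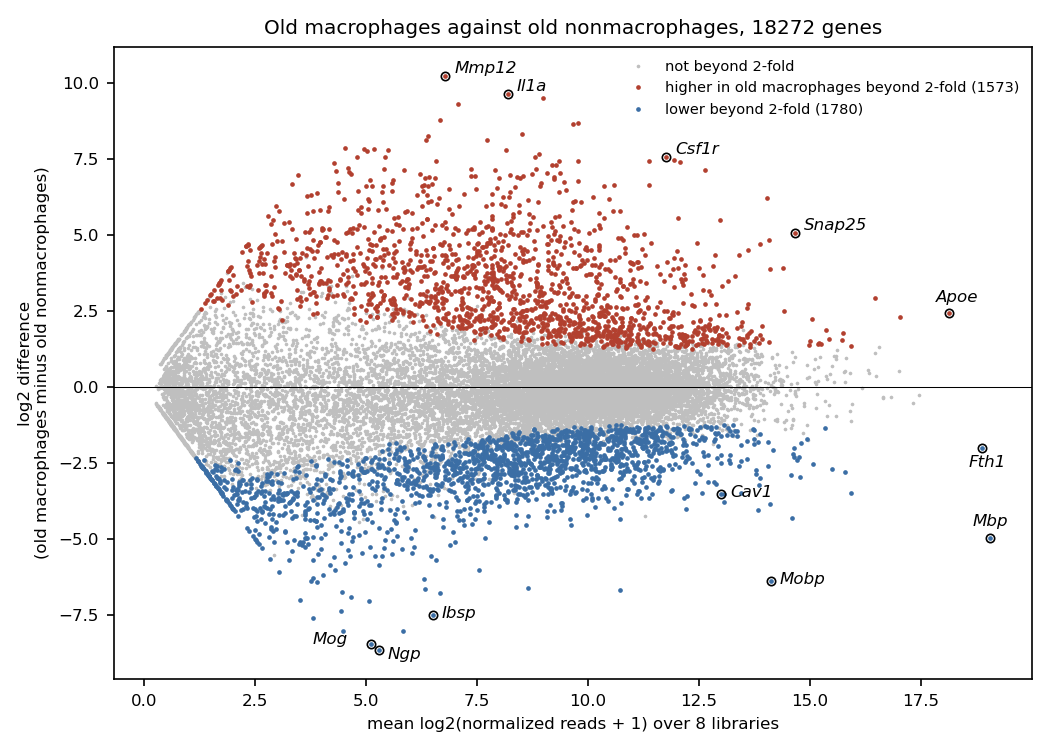
Log2 difference (old macrophages minus old nonmacrophages) against the mean log2(normalized reads + 1) of the 8 libraries for 18272 tested genes. Colours mark the 1573 genes higher and the 1780 genes lower beyond 2-fold, and the named points show the strongest members of both sides.

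Receptors and enzymes that define mononuclear phagocytes separated the sorts clearly. Of 21 tested members 21 rose and 0 fell, 20 of them beyond 2-fold, against 24.9% and 8.61% of all genes, and their median log2 difference was 6.24 against -0.19 over all genes. Lyz2, the macrophage lysozyme, had 135081, 169354, 197929 and 98435 normalized reads in old macrophages, against 1203, 2528, 2726 and 1748 in old nonmacrophages (log2 difference 6.22, SE 0.28, limma adjusted p = 1.1e-07). Adgre1, which encodes the F4/80 antigen, had 7783, 8517, 9693 and 5730.2 normalized reads in old macrophages, against 27.7, 71.6, 84.0 and 31.8 in old nonmacrophages (log2 difference 7.31, SE 0.35, limma adjusted p = 1.5e-07). The groups did not overlap. Replicate 17 was the lowest macrophage library in 21 of the 21 tested members, and the joint fit called 20 of them. Ptprc, the pan-leukocyte antigen CD45, had 6089, 7754, 6453 and 4239 normalized reads in old macrophages, against 155, 383, 131 and 132 in old nonmacrophages (log2 difference 5.06, SE 0.33, limma adjusted p = 9.8e-07), and nonmacrophage replicate 11 held the most of its group. Cd14 (6.63), Cd68 (6.60), Laptm5 (5.55), Aif1 (5.57) and Cyth4 (4.06) rose by these log2 differences. The member with the smallest difference was Mertk, a receptor for dying cells, with 2812, 3769, 3197 and 1898 in old macrophages and 2105, 1787, 2183 and 2096 in old nonmacrophages (log2 difference 0.48, limma adjusted p = 0.049), and its call was lost in the joint fit and when any library other than macrophage replicate 17 was left out, with log2 differences of 0.34 to 0.51.

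Transcription factors of macrophages split. Of 20 tested members 11 rose and 3 fell, 10 and 1 beyond 2-fold. Spi1, which encodes PU.1, the master factor of the myeloid lineage, had 3638, 5136, 4849 and 3521 normalized reads in old macrophages, against 101, 292, 110.1 and 127 in old nonmacrophages (log2 difference 4.88, SE 0.31, limma adjusted p = 7.6e-07). Irf8, a factor of monocytes and microglia, had 7156, 9116, 8521 and 5649 normalized reads in old macrophages, against 618, 1780.4, 199 and 345 in old nonmacrophages (log2 difference 3.83, SE 0.54, limma adjusted p = 1.8e-04). Nonmacrophage replicate 11 was the highest of its group for Irf8, and without it the difference was 4.42 (limma adjusted p = 8.7e-06). Irf5 (4.84), Ikzf1 (4.25), Tfec (4.42), Cebpa (2.99), Runx1 (2.46) and Mef2c (2.01) rose too. Spic, a factor of iron-recycling macrophages, rose at a low level, with 55.8, 25.0, 51.1 and 57.9 in old macrophages and 0, 13.1, 1.67 and 0 in old nonmacrophages (log2 difference 4.22, limma adjusted p = 0.0014). Nr1h3, the oxysterol sensor LXR alpha, fell to 296 to 482 normalized reads in old macrophages, against 1513 to 1749 in old nonmacrophages (log2 difference -2.10, SE 0.15, limma adjusted p = 2.0e-06). Zeb2 (fell by 1.04 on the log2 scale) and Id2 (fell by 0.59) were also lower. Sall1, a factor of microglia, had 296 to 532 in macrophages and 283 to 498 in nonmacrophages, and its difference of -0.02 did not pass the test (limma adjusted p = 0.94). The joint fit called 9 members higher and 0 lower, and of the genes named here it no longer called Nr1h3, Zeb2, Id2 and Tfec.

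PU.1 binds purine-rich sites near the start of many myeloid genes, and 4 promoters with such letters are printed here because they hold such letters and belong to phagocyte genes described here. The promoter of Cx3cr1, which was searched with them, held no match. The windows span 250 bases before to 50 after the gene start (RefSeq, GRCm38.p6), are written 5′ to 3′ on the gene's strand, and carry the searched letters GAGGAAG or their reverse complement in capitals.
Il1a (chr2:129309923-129310222, minus strand): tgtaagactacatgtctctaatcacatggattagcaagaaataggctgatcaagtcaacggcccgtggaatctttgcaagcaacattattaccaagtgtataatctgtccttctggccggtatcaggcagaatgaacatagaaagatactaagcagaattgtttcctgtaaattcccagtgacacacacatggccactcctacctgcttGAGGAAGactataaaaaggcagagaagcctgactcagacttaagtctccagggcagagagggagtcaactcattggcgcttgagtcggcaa
P2ry13 (chr3:59210833-59211132, minus strand): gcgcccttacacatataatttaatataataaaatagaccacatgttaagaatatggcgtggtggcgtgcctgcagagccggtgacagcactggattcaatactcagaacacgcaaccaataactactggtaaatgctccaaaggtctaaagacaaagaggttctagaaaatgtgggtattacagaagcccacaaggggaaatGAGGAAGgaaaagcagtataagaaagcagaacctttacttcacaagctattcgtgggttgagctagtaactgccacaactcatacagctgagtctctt
Itgam (chr7:128062390-128062689, plus strand): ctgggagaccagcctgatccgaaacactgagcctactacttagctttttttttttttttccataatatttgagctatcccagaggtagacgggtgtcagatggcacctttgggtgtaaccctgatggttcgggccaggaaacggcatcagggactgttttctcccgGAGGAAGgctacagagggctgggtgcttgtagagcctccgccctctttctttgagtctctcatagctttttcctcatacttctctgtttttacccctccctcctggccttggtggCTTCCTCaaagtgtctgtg
Trem2 (chr17:48346151-48346450, plus strand): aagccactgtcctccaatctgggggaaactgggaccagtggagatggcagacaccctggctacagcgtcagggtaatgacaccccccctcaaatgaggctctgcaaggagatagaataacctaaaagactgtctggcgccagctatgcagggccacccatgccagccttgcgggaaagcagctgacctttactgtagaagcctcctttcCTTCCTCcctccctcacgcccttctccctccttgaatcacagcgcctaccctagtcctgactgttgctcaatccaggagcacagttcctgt
The first match began 41 bases before the gene start in Il1a and Trem2, 48 before it in P2ry13 and 84 before it in Itgam, which held 2 matches. Sets of 100 genes with the largest positive and negative log2 differences were taken among genes called beyond 2-fold with a higher-group mean of at least 100. Of the positive set 75 genes had a promoter sequence, and 26 of their 85 windows (30.6%) held the letters on either strand. The share was 14.8% (13 of 88 windows) in the negative set. It was 13.5% of 17356 windows of all tested genes, to which these conditions were not applied. The letters TGACTCA, searched for AP-1, were in 10.6% of the windows of the positive side, 5.7% of the negative side and 4.3% of all tested genes. The letters ACAAAG, searched for SOX factors, were in 16.5%, 13.6% and 15.0% of the same 3 sets. A match gives letters in a window and no binding, and these shares carry no test.

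Genes known from microglia and from perivascular macrophages both rose. Of 11 tested microglia-type members 9 rose, all of these beyond 2-fold, and 1 fell (median log2 difference 3.86). Of 16 perivascular-type members 15 rose, all of these beyond 2-fold, and 0 fell (median 6.08). P2ry12, the ADP receptor that steers microglial processes, had 6271, 6658, 5908 and 5162 normalized reads in old macrophages, against 42.4, 178, 162 and 96.6 in old nonmacrophages (log2 difference 5.82, SE 0.38, limma adjusted p = 9.7e-07). Siglech, a sialic acid receptor of microglia and plasmacytoid dendritic cells, had 3664, 3689.9, 4413 and 3189 normalized reads in old macrophages, against 27.1, 24.8, 30.6 and 39.0 in old nonmacrophages (log2 difference 6.91, SE 0.18, limma adjusted p = 9.7e-09). Values within each group were close to each other and the groups lay far apart. Tmem119 had 8094 ± 2203 normalized reads in old macrophages, against 1654 ± 206 in old nonmacrophages (SD, n = 4 each, log2 difference 2.26). The nonmacrophage sort thus also had a clear level of Tmem119, and which of its cells gave these reads was not tested. Sparc, listed here but also a product of fibrocytes, fell by 1.11 on the log2 scale and did not pass the joint fit. Mrc1, the mannose receptor CD206, had 5487, 6190.4, 6545 and 6717 normalized reads in old macrophages, against 16.6, 37.2, 27.2 and 59.3 in old nonmacrophages (log2 difference 7.57, SE 0.32, limma adjusted p = 8.1e-08). Cd163, the scavenger receptor for haemoglobin and haptoglobin, had 598, 1532, 1283 and 1147 normalized reads in old macrophages, against 12.3, 17.9, 18.4 and 18.7 in old nonmacrophages (log2 difference 5.94, SE 0.31, limma adjusted p = 2.7e-07). Lyve1, a hyaluronan receptor of perivascular macrophages and lymphatic vessels, had 1309.9, 1633, 1554 and 1439 in old macrophages and 54.7, 59.9, 45.6 and 70.2 in old nonmacrophages (log2 difference 4.67, limma adjusted p = 5.8e-08). Cd209f (7.82), Clec10a (7.37), Ms4a7 (7.04) and Folr2 (6.79) also rose, and Cd209g, with 55.0 to 140.2 normalized reads in old macrophages and no reads in any nonmacrophage library, was at least 59.3-fold higher against a floor of 3 reads per library. Members of the Cd209 and Ms4a families are similar in sequence and may share reads.

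Complement recognition chains and receptors rose, and C1 proteases and their inhibitor fell. Of 21 tested members 13 rose and 5 fell, 11 and 4 beyond 2-fold. The recognition chains rose, with 50582, 72039.8, 62738 and 41624 normalized reads in old macrophages, against 164, 246, 534 and 551 in old nonmacrophages for C1qb (log2 difference 7.39, SE 0.37, limma adjusted p = 1.9e-07), and with log2 differences of 7.43 for C1qa and 7.45 for C1qc. The anaphylatoxin receptors rose, with 6136, 7404, 7131 and 5626 normalized reads in old macrophages, against 22.8, 6.88, 23.9 and 38.4 in old nonmacrophages for C3ar1 (log2 difference 8.30, SE 0.41, limma adjusted p = 1.8e-07), and with log2 differences of 6.47 for C5ar1 and 4.93 for C5ar2. Itgam, the alpha chain of complement receptor CR3, had 6323, 10020.2, 6839 and 4493 normalized reads in old macrophages, against 76.9, 66.1, 165 and 107 in old nonmacrophages (log2 difference 6.08, SE 0.31, limma adjusted p = 2.0e-07), and its partner Itgb2 rose by 5.24. In these receptors the groups did not overlap. C1ra, a protease of C1, had 178, 442, 420.2 and 290.2 normalized reads in old macrophages, against 2433, 1688, 2001 and 3589 in old nonmacrophages (log2 difference -2.89, SE 0.31, limma adjusted p = 2.7e-05), and C1s1, its substrate protease, fell to 234 to 421 normalized reads in old macrophages, against 2514 to 5103 in old nonmacrophages (log2 difference -3.53, SE 0.26, limma adjusted p = 2.2e-06). Serping1, the C1 inhibitor, had 1149.5, 1723, 1456 and 1242 normalized reads in old macrophages, against 15903, 14007, 17605 and 20652 in old nonmacrophages (log2 difference -3.62, SE 0.15, limma adjusted p = 8.3e-08). For these 3 genes all macrophage libraries lay under all nonmacrophage libraries. C2 fell by 1.63 on the log2 scale. C3 itself had 839.7, 1879, 1060.2 and 485 in old macrophages and 22.1, 73.6, 80.1 and 1043 in old nonmacrophages, so nonmacrophage replicate 19 was the highest of its group and lay above the lowest macrophage library. Its log2 difference was 3.11 (limma adjusted p = 0.018), and without that replicate it was 4.19 (limma adjusted p = 2.2e-04). C4b had 4248 to 8202 in macrophages and 6250.4 to 14159 in nonmacrophages, with a log2 difference of -0.61 that did not pass (limma adjusted p = 0.081). The joint fit no longer called C1s1 (limma adjusted p = 0.051) and C3. The C3 call was also lost without macrophage replicate 7, at 2.78 (limma adjusted p = 0.053), and with edgeR and DESeq2, at 1.90 in both.

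Most phagocytic receptor genes rose. Of 22 tested Fc and phagocytic receptor genes 20 rose and 2 fell (median log2 difference 5.28). Trem2, a lipid receptor of phagocytes, had 8631, 9179, 9167 and 4609.7 normalized reads in old macrophages, against 41.8, 20.6, 102 and 115 in old nonmacrophages (log2 difference 7.04, SE 0.49, limma adjusted p = 1.5e-06), and Tyrobp, its signalling adaptor, rose by 5.80. Fcgr3, an activating receptor for IgG, had 14023, 19469, 18499.5 and 10839 normalized reads in old macrophages, against 119, 145, 192 and 165 in old nonmacrophages (log2 difference 6.64, SE 0.21, limma adjusted p = 1.9e-08), and Fcgr2b, the inhibitory one, rose by 7.00. Msr1 (6.93), Clec7a (6.74), Timd4 (6.42), Stab1 (5.42) and Cd36 (4.11) rose, scavenger and lectin receptors among them. Of the TAM receptors for dying cells Axl rose by 1.39, Mertk by 0.48, and Tyro3 fell by 1.25 on the log2 scale. Among integrins and the kinases behind these receptors, 14 of 20 tested genes rose and 3 fell. Vav1 (6.14), Syk (4.86) and Inpp5d (4.22) were higher, and Itga8 fell by 3.68 with 339 to 1097 in macrophages and 7249.6 to 10038 in nonmacrophages. The joint fit no longer called Tyro3.

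Several receptors of macrophages rose while a ligand of theirs fell, and other ligands rose or did not pass. Of 19 tested genes of the CSF1 and IL34 axis 12 rose and 4 fell. Cx3cl1, which encodes fractalkine, the ligand of CX3CR1, had 1746, 2139.6, 2056 and 2028 normalized reads in old macrophages, against 9072, 9747, 8937 and 11643 in old nonmacrophages (log2 difference -2.30, SE 0.11, limma adjusted p = 1.5e-07). Il34, a ligand of CSF1R, had 173, 385, 375 and 612 normalized reads in old macrophages, against 792, 1186, 926 and 975 in old nonmacrophages (log2 difference -1.45, SE 0.33, limma adjusted p = 0.0034). Both ligands were lower in every macrophage library than in any nonmacrophage library. Csf1, the other ligand, had 2162, 2195, 1557 and 1499.8 normalized reads in old macrophages, against 1541, 1475, 1231 and 2578 in old nonmacrophages, ranges that overlap, and its log2 difference of 0.15 did not pass (limma adjusted p = 0.58). Cd47, the signal that restrains engulfment, had 5088 to 6303 in macrophages and 10140.3 to 12463 in nonmacrophages (fell by 1.00 on the log2 scale), while its receptor Sirpa had 10359 to 17812 in macrophages and 2761 to 3625 in nonmacrophages (log2 difference 2.23). Cd200 had 1917 to 2598 in macrophages and 4039 to 5967 in nonmacrophages (fell by 1.15), while its inhibitory receptor Cd200r1 had 149 to 529 in macrophages and 2.74 to 10.3 in nonmacrophages (log2 difference 5.85, limma adjusted p = 5.4e-06). In the TGF-beta pathway Tgfb1 (2.22) and the receptor Tgfbr1 (2.25) rose, Tgfb3 fell by 2.55, and the receptor Tgfbr2 had a difference of -0.25 that did not pass. The receptor subunits Csf2ra (3.68), Csf2rb (3.63) and Csf2rb2 (3.98) rose, and the near-identical copies Csf2rb and Csf2rb2 may share reads. The joint fit no longer called Cx3cl1 (limma adjusted p = 0.25), Il34 (0.57), Tgfb3 (0.12), Csf2ra and Csf2rb2, while Cd47 and Cd200 passed it.

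**Figure D3:**
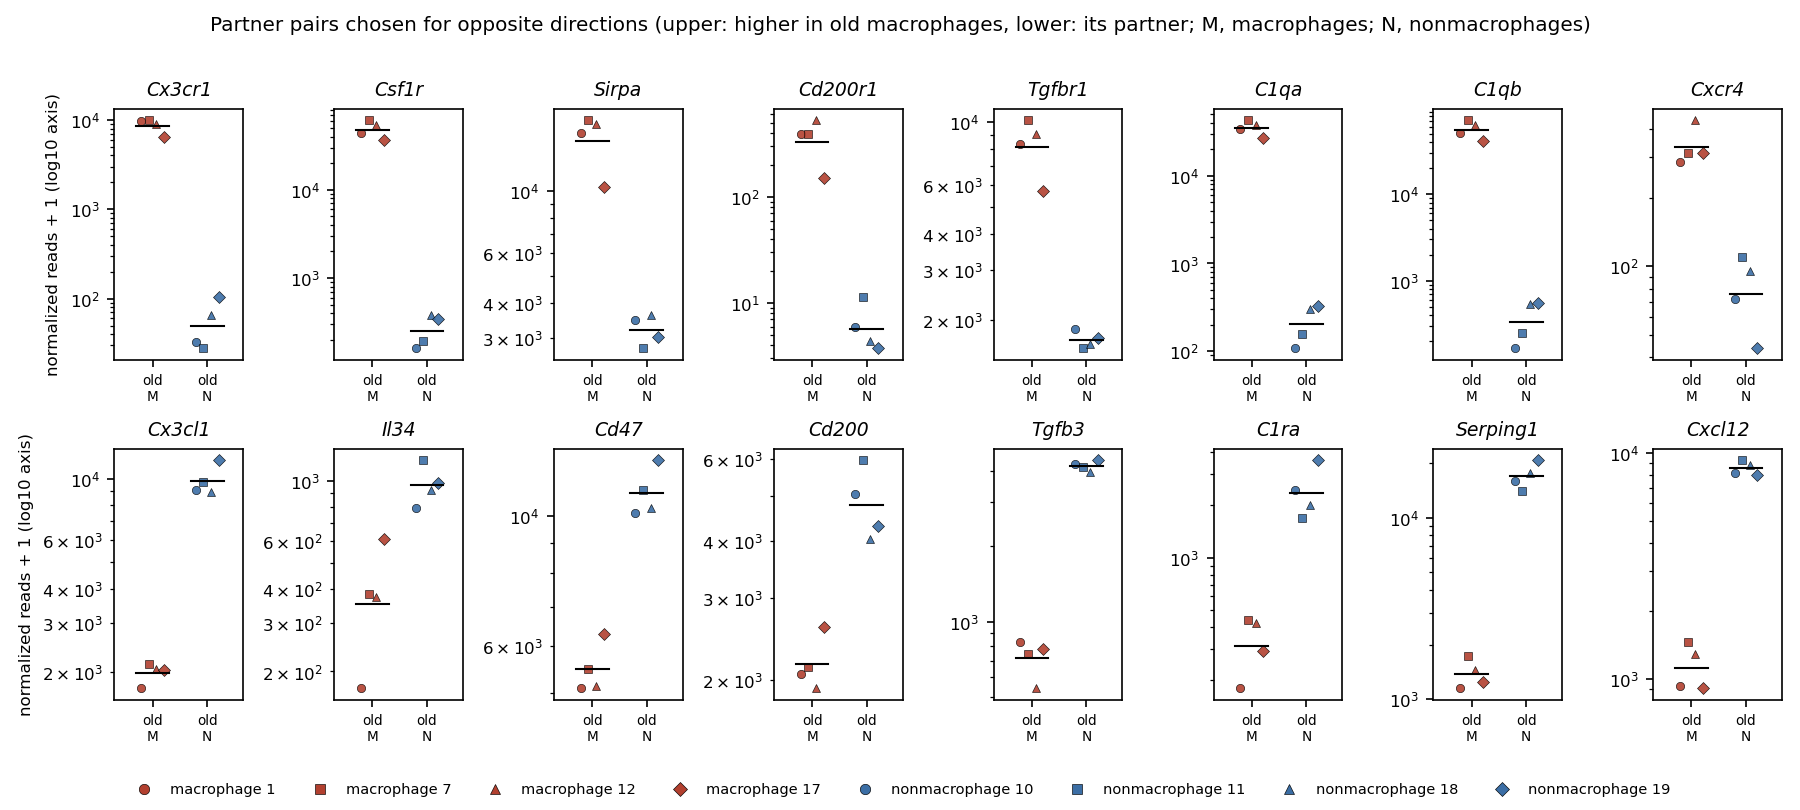
Normalized reads (log10 axis, 1 added) in each library of 8 partner pairs, each with the gene that rose in old macrophages in the upper row and its partner in the lower row, old macrophages left of old nonmacrophages. The upper genes lie higher in all 4 macrophage libraries, and the lower genes (Cx3cl1, Il34, Cd47, Cd200, Tgfb3, C1ra, Serping1 and Cxcl12) lie lower in all 4. The pairs were chosen for these opposite directions, and pairs such as Csf1r with Csf1 or Tgfbr1 with Tgfb1 are not drawn.

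Most tested chemokine ligand genes were higher in macrophages, and a few were lower, among them Ccl11 and Cxcl12, which are known from stromal cells. Of 23 tested ligands 16 rose and 4 fell, 11 and 3 beyond 2-fold. Ccl3 had 17992, 15024, 19177 and 13872 normalized reads in old macrophages, against 52.3, 29.6, 56.2 and 28.0 in old nonmacrophages (log2 difference 8.66, SE 0.24, limma adjusted p = 9.7e-09), and Ccl4 had 18631, 18845, 19047 and 14705 normalized reads in old macrophages, against 52.3, 24.8, 40.6 and 58.7 in old nonmacrophages (log2 difference 8.69, SE 0.24, limma adjusted p = 9.7e-09). These 2 ligands are similar in sequence and may share reads. Ccl12, a ligand of CCR2, had 7848, 17911, 12953 and 19586 normalized reads in old macrophages, against 2.46, 11.0, 31.7 and 90.5 in old nonmacrophages (log2 difference 9.52, SE 0.83, limma adjusted p = 6.2e-06). Cxcl2, which attracts neutrophils, rose to 4779 to 13671 normalized reads in old macrophages, against 54.4 to 180.0 in old nonmacrophages (log2 difference 6.76, SE 0.42, limma adjusted p = 7.3e-07). Ccl2 had 8434, 14841, 13131 and 11836 in old macrophages and 186, 191, 97.3 and 5495 in old nonmacrophages, with nonmacrophage replicate 19 far above the others of its group, and rose by 4.98 (limma adjusted p = 0.0037), or by 6.28 (limma adjusted p = 6.7e-07) without that library. On the other side, Ccl11, an eosinophil attractant of fibroblasts, had 131, 937, 567 and 321 normalized reads in old macrophages, against 6074, 4230.4, 5865 and 9473 in old nonmacrophages (log2 difference -3.99, SE 0.51, limma adjusted p = 9.3e-05), and Cxcl12, the stromal ligand of CXCR4, had 927, 1450.2, 1285 and 908 normalized reads in old macrophages, against 8146, 9254, 8846 and 7931 in old nonmacrophages (log2 difference -2.93, SE 0.15, limma adjusted p = 2.7e-07). Both were lower in all macrophage libraries. Cxcl10, an interferon-induced ligand, had 713, 2526, 378 and 1838 in old macrophages and 157, 481, 69.5 and 9173 in old nonmacrophages, and its difference of 1.17 did not pass (limma adjusted p = 0.49); without nonmacrophage replicate 19 it was 2.60 (limma adjusted p = 0.018). Among 19 tested receptors 9 rose and 4 fell, beside 24.9% and 33.4% of all genes. Log2 differences were 4.71 for Ccr1, 4.32 for Cysltr1 and 2.14 for Cxcr4. The scavenging receptor Ackr3 fell by 1.81.

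Interleukin 1 genes were among the clearest cytokine differences between the sorts. Il1a (mm10, chromosome 2, 129299610 to 129309972), which encodes the alarmin interleukin 1 alpha, had 7393, 8732, 8734 and 8315 normalized reads in old macrophages, against 10.5, 6.88, 10.0 and 10.4 in old nonmacrophages (log2 difference 9.65, SE 0.18, limma adjusted p = 2.2e-09). The 4 macrophage libraries were close to each other and about 878-fold above the nonmacrophage mean, and Il1a had the smallest adjusted p of all genes that rose. Il1b had 7506, 6089.7, 4185 and 2908 normalized reads in old macrophages, against 138, 201, 186 and 306 in old nonmacrophages (log2 difference 4.60, SE 0.31, limma adjusted p = 1.1e-06), and Il1rn, the antagonist of the same receptor, rose by 4.66. Osm, oncostatin M, had 1349 to 3531 in macrophages and 4.13 to 112 in nonmacrophages (log2 difference 5.67, limma adjusted p = 2.7e-04). Il10, the anti-inflammatory cytokine, had 118, 56.0, 123 and 15.9 normalized reads in old macrophages, against 0, 0, 0 and 0 in old nonmacrophages, so it was at least 43.2-fold higher against a floor of 3 reads per library. Il33, an alarmin of fibroblasts and glia, lay on the other side with 175, 154, 179 and 197 normalized reads in old macrophages, against 2627, 2236, 2479.7 and 2827 in old nonmacrophages (log2 difference -3.84, SE 0.13, limma adjusted p = 2.9e-08). Of 20 tested cytokines 8 rose and 4 fell, beside 24.9% and 33.4% of all genes. The other 8, Il6 and Il18 among them, did not pass. Il6 had 11.5 to 69.7 in macrophages and 11.1 to 41.1 in nonmacrophages, and Il18 had 133 to 309.6 and 259 to 371. In the joint fit Il33 had a limma adjusted p of 0.058.

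Sensors of microbial and nucleic acid ligands rose, with exceptions. Of 22 tested toll-like receptor genes and adaptors 14 rose and 4 fell, where 24.9% of all genes rose and 33.4% fell. The joint fit called 8 and 1 of them, beside 1705 and 1726 of 18441 genes. Tlr7, the endosomal sensor of single-stranded RNA, had 1950.1, 2618, 2385 and 1736 normalized reads in old macrophages, against 0, 0, 21.1 and 24.7 in old nonmacrophages (log2 difference 8.78, SE 1.05, limma adjusted p = 5.8e-05). Tlr2, the sensor of bacterial lipoproteins, had 9213, 11264, 10947 and 6889 normalized reads in old macrophages, against 352, 238, 264 and 559 in old nonmacrophages (log2 difference 4.81, SE 0.26, limma adjusted p = 3.1e-07). Tlr13 (6.56), Tlr1 (6.88), Tlr8 (6.44) and Unc93b1 (3.69), which carries endosomal receptors, rose as well. Tlr3, the sensor of double-stranded RNA, fell by 1.07 on the log2 scale with 572 to 972 in macrophages and 1349 to 2047 in nonmacrophages, and Irak3, a brake on this signalling, fell by 1.80, though not in the joint fit.

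Antigen presentation on MHC class II rose as a group. All 13 tested members rose, 10 beyond 2-fold (median log2 difference 3.46), and the joint fit called 8. Cd74, the invariant chain, had 64941, 80229, 105527 and 88841 normalized reads in old macrophages, against 4871, 15039, 2930.1 and 4582 in old nonmacrophages (log2 difference 3.90, SE 0.41, limma adjusted p = 2.4e-05), and H2-Ab1, a beta chain of class II, had 24418, 27585, 37777 and 32619 normalized reads in old macrophages, against 2990.4, 8994, 1088 and 1904 in old nonmacrophages (log2 difference 3.46, SE 0.52, limma adjusted p = 2.6e-04). Nonmacrophage replicate 11 was the highest of its group in both, and without it the differences were 4.37 (limma adjusted p = 7.3e-07) for Cd74 and 4.04 (limma adjusted p = 7.8e-06) for H2-Ab1. Class I genes differed little. Of 16 tested members 5 rose and 1 fell, beside 24.9% and 33.4% of all genes, and 1 rose beyond 2-fold. B2m had 48869 to 67269.7 in macrophages and 30602 to 45764 in nonmacrophages (log2 difference 0.67), and the class I-like gene H2-M3 rose by 1.80. In class I genes nonmacrophage replicate 19 was the highest of its group in 12 of the 16 and replicate 18 the lowest in 15. Macrophage replicate 7 was the highest of its group in 12. Of 16 tested interferon-stimulated genes 2 rose and 1 fell, against 24.9% and 33.4% of all genes. Oas2 (2.64) and Oas3 (2.39) rose. Ifit3 had 1853, 5762, 1137 and 2353 in old macrophages and 4588, 4904, 4326 and 30101 in old nonmacrophages (log2 difference -1.67, limma adjusted p = 0.049), and without nonmacrophage replicate 19 the difference was -0.99 (limma adjusted p = 0.088). The Ifit3 call was lost with edgeR, voom and a common total and when any library other than macrophage replicate 7 and nonmacrophage replicate 18 was left out, with log2 differences of -1.90 to -0.99. With nonmacrophage replicate 19 left out, 4 members were called higher and 0 lower, and without macrophage replicate 7 the counts were 2 and 5. The joint fit no longer called B2m, Oas2, Oas3 or Ifit3.

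Most tested lysosomal genes rose, and genes of the oxidative burst and of lipid handling went both ways. Of 12 tested genes of the NADPH oxidase 7 rose and 3 fell, beside 24.9% and 33.4% of all genes. Cybb, the catalytic subunit of the phagocyte oxidase, had 9468, 11652, 11664 and 6853 normalized reads in old macrophages, against 135, 114, 128 and 132 in old nonmacrophages (log2 difference 6.24, SE 0.17, limma adjusted p = 9.7e-09), and Ncf1 (5.03), Ncf4 (4.51), Rac2 (3.43) and the proton channel Hvcn1 (1.97) rose. Nox3, the oxidase of the inner ear, was lower, with 0, 8.16, 0 and 0 normalized reads in old macrophages, against 29.5, 4.82, 173 and 33.5 in old nonmacrophages (log2 difference -4.21, SE 1.06, limma adjusted p = 0.0066), but had a limma adjusted p of 0.085 in the joint fit. Of 30 tested lysosomal genes 22 rose and 1 fell, 13 and 0 beyond 2-fold. Ctss, cathepsin S, had 75353, 95463, 83621 and 51979 normalized reads in old macrophages, against 303, 597, 705 and 633 in old nonmacrophages (log2 difference 7.13, SE 0.27, limma adjusted p = 5.2e-08), and Ctsd, cathepsin D, had 262631, 306380, 294677 and 159626 normalized reads in old macrophages, against 34421, 28359, 33248 and 36053 in old nonmacrophages (log2 difference 2.91, SE 0.19, limma adjusted p = 1.1e-06). The membrane protein Lamp1 (log2 difference 0.18) and the protease Ctsl (-0.22) did not pass. Apoe, the lipid carrier, took 1.41 to 2.59% of macrophage reads and 0.305 to 0.396% of nonmacrophage reads, with 660562, 786725, 852809 and 455382 normalized reads in old macrophages, against 118343, 107439, 135070 and 138854 in old nonmacrophages (log2 difference 2.43, SE 0.19, limma adjusted p = 2.9e-06). Of 22 tested genes of cholesterol and lipid handling 8 rose and 5 fell, where 24.9% of all genes rose and 33.4% fell. Lpl, lipoprotein lipase, rose by 4.04 and Abcg1, a cholesterol exporter, by 0.86.

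Iron genes moved in both directions. Of 14 tested genes 7 rose and 4 fell, 4 and 4 beyond 2-fold, where 24.9% of all genes rose and 33.4% fell. Slc11a1, the metal transporter of phagosomes, had 5262, 5796, 5207 and 3289.8 normalized reads in old macrophages, against 51.0, 43.4, 48.4 and 52.1 in old nonmacrophages (log2 difference 6.59, SE 0.19, limma adjusted p = 1.2e-08). Tfrc, the transferrin receptor, rose by 1.93, and Hmox1, which breaks down haem, by 1.92. Fth1, the ferritin heavy chain, was among the highest genes of both sorts and fell to 195184 to 263857 normalized reads in old macrophages, against 795254 to 1180000 in old nonmacrophages (log2 difference -2.03, SE 0.15, limma adjusted p = 2.0e-06). The light chain Ftl1 had 79852 to 124258 in macrophages and 65332 to 90695 in nonmacrophages, and its difference of 0.34 did not pass (limma adjusted p = 0.08). The ferroxidases Cp, with 4327 to 6029 in macrophages and 30737 to 44949 in nonmacrophages, and Heph, with 7.83 to 49.4 in macrophages and 257 to 396 in nonmacrophages, fell by 2.87 and 3.90 on the log2 scale, Heph without passing the joint fit.

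**Figure D4:**
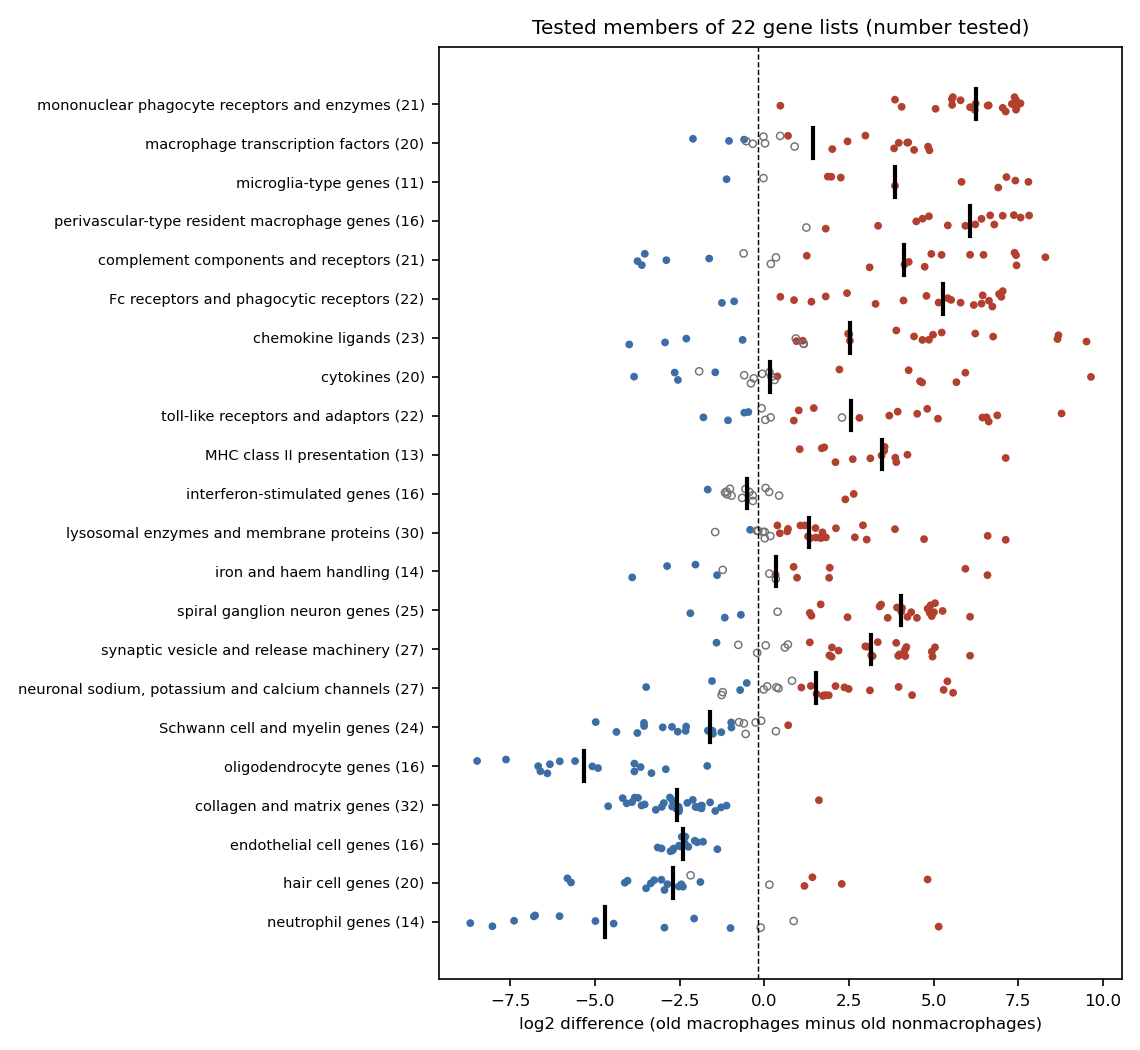
Log2 difference (old macrophages minus old nonmacrophages) of every tested member of 22 gene lists, 1 point per gene, filled where the gene passed the limma test, with a bar at the list median and a dashed line at the median of all genes, -0.19. Phagocyte, perivascular-type, neuronal and synaptic lists lie to the right, and oligodendrocyte, matrix, endothelial and neutrophil lists to the left.

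Neuronal genes were higher in the macrophage sort. Of 25 tested spiral ganglion neuron genes 21 rose and 3 fell, 18 and 0 beyond 2-fold (median log2 difference 4.05). Of 27 tested genes of synaptic vesicles and release 21 rose and 1 fell, and of 27 tested neuronal channels 16 rose and 4 fell. Snap25, a SNARE protein of synaptic release, had 143367, 140741, 152752 and 155783 normalized reads in old macrophages, against 3190.3, 6325, 4746 and 4252 in old nonmacrophages (log2 difference 5.04, SE 0.18, limma adjusted p = 3.6e-08), and the macrophage libraries were close to each other. Slc17a7, the vesicular glutamate transporter of spiral ganglion neurons, had 7601, 12922, 10564 and 3218 normalized reads in old macrophages, against 84.3, 100.5, 111 and 165 in old nonmacrophages (log2 difference 6.08, SE 0.39, limma adjusted p = 8.4e-07). Calb2, calretinin, which marks a class of type I neurons and inner hair cells, varied more, with 88056, 155568, 141900 and 37104 normalized reads in old macrophages, against 2725, 4676, 2776 and 3173 in old nonmacrophages (log2 difference 4.82, SE 0.40, limma adjusted p = 4.6e-06), and was lowest in macrophage replicate 17. Pvalb, parvalbumin, rose by 3.65, the neurofilament chains Nefl, Nefm and Nefh by 4.51, 4.23 and 4.34, and Tubb3, a neuronal tubulin, by 4.89. Kcnc1, a fast potassium channel, had 4213, 5035, 4231 and 3938 normalized reads in old macrophages, against 88.6, 162, 109 and 91.6 in old nonmacrophages (log2 difference 5.30, SE 0.19, limma adjusted p = 4.2e-08), and Scn1a, a sodium channel, rose by 5.58. Prph, the intermediate filament of type II neurons, went the other way, with 15.8 to 71.8 in macrophages and 84.7 to 256 in nonmacrophages (fell by 2.18 on the log2 scale). Other neuron-enriched genes with small spread rose, among them Nap1l2, a nucleosome assembly protein, with 4657, 4627, 5125 and 4798 normalized reads in old macrophages, against 207, 223, 197 and 218 in old nonmacrophages (log2 difference 4.50, SE 0.10, limma adjusted p = 4.9e-09), and Snrpn, a splicing protein of neurons, with 25781, 25503, 25818 and 27809 normalized reads in old macrophages, against 2327, 2737, 2718 and 2676 in old nonmacrophages (log2 difference 3.33, SE 0.08, limma adjusted p = 9.7e-09). The summed spiral ganglion genes were 437179, 563592, 536538 and 398805 normalized reads in old macrophages, against 26159, 34162, 31502 and 30574 in old nonmacrophages. The part that neurons or neuronal RNA in the GFP gate had in these values was not tested. The joint fit called 18 neuron genes, 15 synaptic genes and 6 channels higher, and did not call Prph.

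The nonmacrophage sort held the myelin genes, above all those of oligodendrocytes. All 16 tested oligodendrocyte genes fell in old macrophages, all beyond 2-fold, and their median log2 difference was -5.33. Mog, a surface protein of central myelin, had 0, 1.63, 0.922 and 1.22 normalized reads in old macrophages, against 369.6, 709.5, 550.0 and 1255 in old nonmacrophages (log2 difference -8.48, SE 0.47, limma adjusted p = 3.8e-07). Mobp, another central myelin protein, had 1184, 1730.4, 1212 and 5496 normalized reads in old macrophages, against 130049, 186646, 144570 and 200600 in old nonmacrophages (log2 difference -6.40, SE 0.43, limma adjusted p = 1.1e-06), with macrophage replicate 17 the highest of its group. Olig2, a factor of the oligodendrocyte lineage, had 0, 0, 0 and 0 normalized reads in old macrophages, against 152, 257, 84.0 and 452 in old nonmacrophages, so it was at least 139-fold lower in old macrophages against a floor of 3 reads per library. Klk6 (fell by 6.68) and Ermn (fell by 6.61) belonged to the same list. Of 24 tested Schwann cell and myelin genes 17 fell and 1 rose, with a smaller median of -1.59. Drp2, which links Schwann cells to their basal lamina, fell by 3.55 on the log2 scale, and Sox10, the glial lineage factor, by 1.65. Egr2, a myelin factor that is also an immediate early gene, had a difference of -0.26 that did not pass. Without macrophage replicate 17, 19 of the Schwann cell genes were called lower. Of 14 tested astrocyte and satellite glia genes 10 fell, Aqp4 (-2.47) and Slc1a3 (-1.46) among them, and Fabp5 (2.17) and Aldoc (1.65) rose.

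Matrix, bone and vessel genes fell. Of 32 tested collagen and matrix genes 31 fell, 26 beyond 2-fold, and 1 rose. Dcn, decorin, had 2728, 4242, 3768 and 3586 normalized reads in old macrophages, against 62043, 50322, 58176 and 67099 in old nonmacrophages (log2 difference -4.06, SE 0.14, limma adjusted p = 3.8e-08). Coch, cochlin, the abundant matrix protein of the spiral ligament and limbus, had 9823, 7547, 17695 and 7524 normalized reads in old macrophages, against 71089, 74818, 95176 and 72874 in old nonmacrophages (log2 difference -2.97, SE 0.25, limma adjusted p = 4.9e-06), and replicate 12 was the highest macrophage library. Postn, periostin, was the exception, with 574, 676, 677 and 110.3 in old macrophages and 138, 111, 231 and 92.2 in old nonmacrophages (log2 difference 1.61, limma adjusted p = 0.031). Its call was lost in the joint fit and when any library other than macrophage replicate 17 and nonmacrophage replicate 18 was left out, with log2 differences of 1.38 to 1.63. Of 17 tested bone genes 12 fell and 1 rose. Ibsp, bone sialoprotein, had 0, 0, 62.2 and 31.7 normalized reads in old macrophages, against 1186, 1529, 1253 and 984 in old nonmacrophages (log2 difference -7.50, SE 1.27, limma adjusted p = 5.8e-04), and the near-identical Bglap and Bglap2, which may share reads, fell by 6.29 and 5.88. Spp1, osteopontin, which macrophages also make, rose instead, with 416730, 288778, 258306 and 244658 normalized reads in old macrophages, against 62559.8, 54224, 66095 and 60526 in old nonmacrophages (log2 difference 2.28, SE 0.16, limma adjusted p = 1.6e-06). Of 11 tested osteoclast genes 5 rose and 1 fell, beside 24.9% and 33.4% of all genes. Their sums were 8223 to 15511 normalized reads in old macrophages, against 13241 to 18843 in old nonmacrophages. Dcstamp (5.78), Atp6v0d2 (5.74) and Tnfrsf11a (3.09) rose, while Ctsk, the osteoclast collagenase, had 573, 60.9, 773 and 23.8 in old macrophages and 491, 422, 426 and 426 in old nonmacrophages, with no difference past the test (log2 difference -1.45). All 16 tested endothelial genes fell, 15 beyond 2-fold, and the joint fit called 9. Cldn5, the tight junction protein of vessels, had 1284, 1187, 670.0 and 1560.1 normalized reads in old macrophages, against 9341, 9116, 3948 and 4062 in old nonmacrophages (log2 difference -2.43, SE 0.35, limma adjusted p = 1.8e-04). Of 14 tested pericyte and smooth muscle genes 13 fell, and the joint fit called 6. Acta2, smooth muscle actin, had 387, 46.3, 25.3 and 155 normalized reads in old macrophages, against 6808, 920.1, 512 and 691 in old nonmacrophages (log2 difference -3.71, SE 0.95, limma adjusted p = 0.007), with nonmacrophage replicate 10 far above the others, and without it the difference was -2.89 (limma adjusted p = 0.015).

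Genes of the cochlear epithelium fell, with exceptions. Of 20 tested hair cell genes 14 fell and 4 rose, and the joint fit called 7 and 2. Slc26a5, prestin, the motor protein of outer hair cells, had 0, 0, 11.1 and 6.71 normalized reads in old macrophages, against 346, 92.2, 202 and 140.5 in old nonmacrophages (log2 difference -5.81, SE 0.87, limma adjusted p = 2.5e-04), and Ocm, the outer hair cell protein oncomodulin, had 0, 3.81, 187 and 33.5 normalized reads in old macrophages, against 1074, 489, 936 and 468 in old nonmacrophages (log2 difference -5.71, SE 1.32, limma adjusted p = 0.004). Both were higher in every nonmacrophage library. Calb2, already given with the neurons, and Cib2 (2.29) rose. Of 18 tested supporting cell genes 14 fell and 1 rose, with the gap junction genes Gjb2 (-1.12) and Gjb6 (-1.44) lower. Of 17 tested genes of the stria vascularis and spiral ligament 11 fell and 3 rose. Slc26a4, pendrin, fell to 76.5 to 892 normalized reads in old macrophages, against 3189.9 to 4890.3 in old nonmacrophages (log2 difference -3.73, SE 0.58, limma adjusted p = 3.5e-04). Kcne1, a potassium channel subunit of strial marginal cells, had 11657, 3327, 3531 and 3809 in old macrophages and 2120.1, 1136, 1312 and 1076 in old nonmacrophages (log2 difference 1.81, limma adjusted p = 0.0023), and Esrrb, a factor of the same cells, rose by 1.70 but did not pass the joint fit. Macrophage replicate 1 was the highest library for Kcne1, and without it the difference was 1.39 (limma adjusted p = 5.9e-04).

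Markers of other leukocytes differed by cell type. Most neutrophil genes fell, and few T and natural killer cell genes passed the test. Of 11 tested dendritic cell genes 6 rose and 1 fell, beside 24.9% and 33.4% of all genes. Of 14 tested neutrophil genes 11 fell and 1 rose, their median log2 difference was -4.72, and the joint fit called 7 lower. Ngp, a granule protein of developing neutrophils, had 0, 0, 1.38 and 4.88 normalized reads in old macrophages, against 1298, 175, 3072 and 563 in old nonmacrophages (log2 difference -8.68, SE 0.88, limma adjusted p = 1.8e-05), and S100a9, a cytosolic protein of neutrophils, had 0, 2.72, 0.461 and 27.4 normalized reads in old macrophages, against 1079, 422, 2389.6 and 655 in old nonmacrophages (log2 difference -8.03, SE 0.97, limma adjusted p = 6.1e-05). Nonmacrophage replicate 18 held the most of both, and the groups did not overlap. Without that library the differences were -8.03 (limma adjusted p = 6.9e-05) for Ngp and -7.57 (limma adjusted p = 3.3e-04) for S100a9. Csf3r, the G-CSF receptor, which macrophages also carry, was the member that rose, with 1966 to 3901 in macrophages and 47.5 to 91.8 in nonmacrophages. Of 14 tested T and natural killer cell genes 1 rose and 1 fell, beside 24.9% and 33.4% of all genes. The list sums were low, with 654 to 1592 normalized reads in old macrophages, most of them of Cd4, and 224 to 380 in old nonmacrophages. At such levels few calls need not mean no difference. Cd4, which macrophages can also carry, had 568, 1045, 1439.9 and 474 normalized reads in old macrophages, against 8.61, 0, 16.1 and 23.6 in old nonmacrophages (log2 difference 6.65, SE 0.89, limma adjusted p = 1.2e-04), while the T cell receptor chain Cd3e had 8.34, 19.0, 17.5 and 4.27 in old macrophages and 13.5, 15.8, 13.9 and 25.8 in old nonmacrophages, with no difference past the test (log2 difference -0.60). Of 10 tested B cell genes 3 rose and 3 fell, beside 24.9% and 33.4% of all genes. Cd22, an inhibitory sialic acid receptor that microglia can express, had 837, 1225, 1021 and 628 normalized reads in old macrophages, against 0, 19.3, 16.1 and 17.0 in old nonmacrophages (log2 difference 6.66, SE 0.86, limma adjusted p = 9.6e-05), while Cd79a, a chain of the B cell receptor, fell to 0 to 4.15 normalized reads in old macrophages, against 26.8 to 47.7 in old nonmacrophages (log2 difference -3.69, limma adjusted p = 3.5e-04). Of 9 tested monocyte genes 4 rose and 2 fell, beside 24.9% and 33.4% of all genes, and the joint fit called 0. Ccr2, the monocyte receptor for CCL2, had 496, 2449, 909 and 357 normalized reads in old macrophages, against 56.6, 158, 13.3 and 19.2 in old nonmacrophages (log2 difference 4.30, SE 0.79, limma adjusted p = 1.0e-03), and Ly6c2, a surface protein of inflammatory monocytes, had 54.5, 1247, 304 and 9.14 in old macrophages and 58.4, 84.0, 53.4 and 37.9 in old nonmacrophages, with no difference past the test (log2 difference 1.08). Macrophage replicate 7 was the highest library for both. Haemoglobin genes fell, with 271 to 978 in macrophages and 1941 to 4122 in nonmacrophages for Hbb-bs (by 2.28 on the log2 scale), and the near-identical Hba-a1 and Hba-a2 fell by 2.24 and 2.28. The joint fit called neither these haemoglobin genes nor Ccr2.

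**Figure D5:**
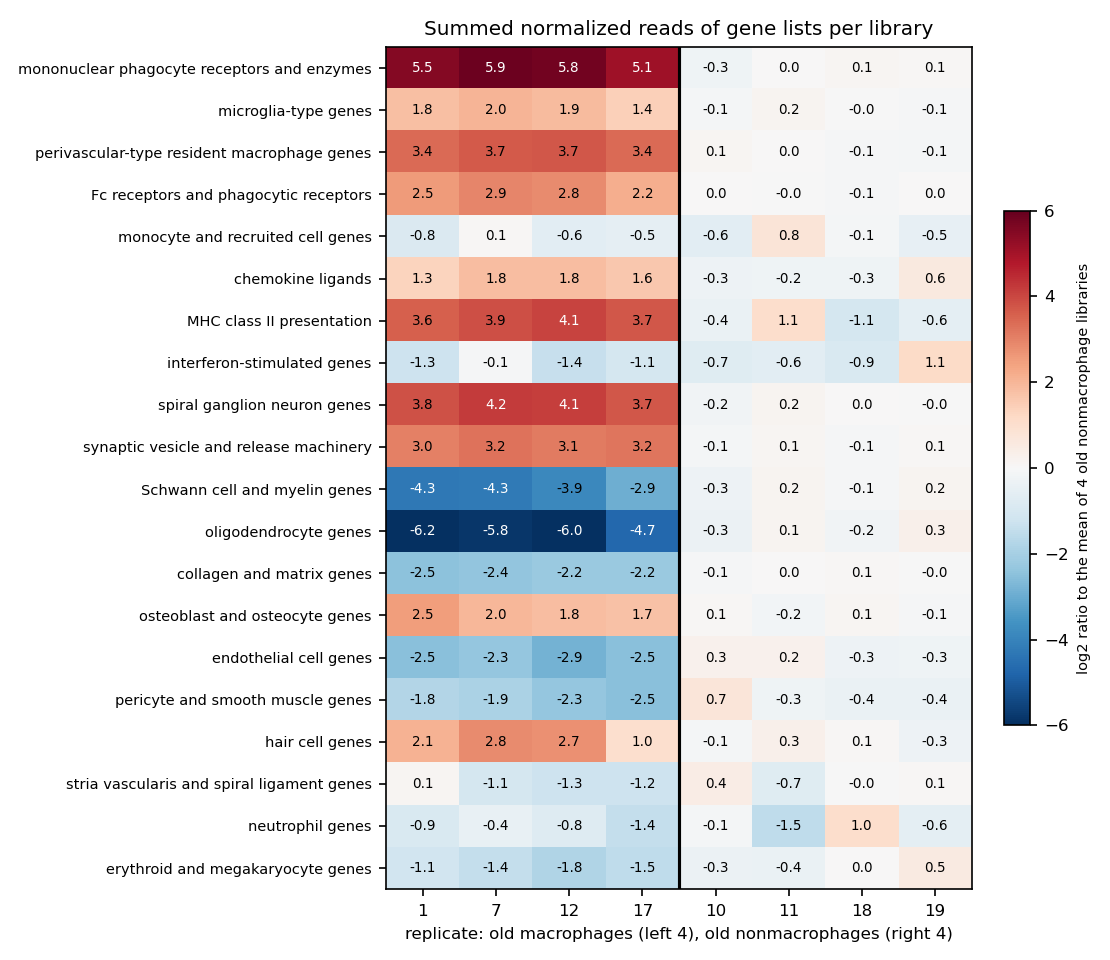
Summed normalized reads of 20 gene lists in each library, as log2 of the ratio to the mean of the 4 old nonmacrophage libraries, old macrophages (replicates 1, 7, 12 and 17) left of old nonmacrophages (10, 11, 18 and 19). Each column is 1 library, and the single deep cells show libraries that stood apart, such as nonmacrophage replicate 19 in the interferon-stimulated genes and replicate 18 in the neutrophil genes. The sums of the hair cell and osteoblast lists are carried by Calb2 and Spp1. In the oligodendrocyte list Mobp makes up most of the sum in macrophage replicate 17 and in the nonmacrophage libraries.

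Growth factors of nerve and vessels and purinergic genes went both ways. Of 21 tested growth factors 3 rose and 10 fell, beside 24.9% and 33.4% of all genes. Nrg1, the axonal signal for Schwann cells, had 371 to 714 normalized reads in old macrophages, against 18.5 to 31.1 in old nonmacrophages (log2 difference 4.29, SE 0.28, limma adjusted p = 9.8e-07), and Pdgfb rose by 0.94. Neuronal genes were also higher in the macrophage sort, and which of its cells gave the Nrg1 reads was not tested. Ptn, pleiotrophin, had 4486, 3889, 5120.1 and 5864 normalized reads in old macrophages, against 47182, 43623, 42039 and 48420.2 in old nonmacrophages (log2 difference -3.24, SE 0.13, limma adjusted p = 6.0e-08), and the neurotrophins Ntf3 (-3.38) and Bdnf (-3.25) fell. Of 17 tested genes of nucleotide signalling 7 rose and 4 fell, beside 24.9% and 33.4% of all genes. P2ry13, an ADP receptor, had 4501, 5517, 4399 and 2940.4 normalized reads in old macrophages, against 11.1, 24.1, 30.6 and 12.6 in old nonmacrophages (log2 difference 7.80, SE 0.33, limma adjusted p = 8.3e-08), and P2ry6, the UDP receptor that triggers engulfment in microglia, rose by 6.33. P2rx4 (1.19), P2rx7 (1.29) and the ectonucleotidase Entpd1 (1.50) rose less, and P2rx2, the ATP-gated channel of the cochlear epithelium, fell to 426 to 875 normalized reads in old macrophages, against 3105 to 4029 in old nonmacrophages (log2 difference -2.41, SE 0.20, limma adjusted p = 5.2e-06). Nt5e, the ectoenzyme that makes adenosine, fell by 2.80. Of 15 tested proliferation genes 4 rose and 1 fell, 0 beyond 2-fold, again beside 24.9% and 33.4% of all genes. Of 19 tested immediate early and heat shock genes 5 rose and 3 fell, beside the same shares of all genes. Fos had 85919 to 116890 in macrophages and 97126 to 216182 in nonmacrophages, with no difference past the test (log2 difference -0.34). Hspa8, a constitutive chaperone, was higher by 1.12. The joint fit no longer called Nrg1 (limma adjusted p = 0.11), Pdgfb, Bdnf and P2rx7.

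The remaining genes with the largest log2 differences, the smallest adjusted p or the highest levels are given next. Mmp12, the macrophage elastase, had the largest log2 difference of the named genes, with 4568, 2147, 16376 and 1352 normalized reads in old macrophages, against 0.615, 0, 13.9 and 3.29 in old nonmacrophages (log2 difference 10.23, SE 0.93, limma adjusted p = 8.5e-06). Replicate 12 held by far the most, and without it the difference was 9.54 (limma adjusted p = 2.9e-05). Gpr84, a receptor for medium-chain fatty acids, had 3694, 4641, 3705 and 2128 normalized reads in old macrophages, against 0, 4.82, 7.79 and 15.9 in old nonmacrophages (log2 difference 9.30, SE 0.73, limma adjusted p = 3.1e-06). Lilra5 (8.26), Ms4a4a (8.13), Ms4a6d (8.11) and Klra2 (7.81) rose by similar amounts, and Plek (5.79) and Fcer1g (6.19), the chain that Fc receptors signal through, rose with small spread. Chrnb3, a nicotinic receptor subunit of neurons, had 366, 445, 130.4 and 741 normalized reads in old macrophages, against 0, 0.688, 0 and 2.19 in old nonmacrophages (log2 difference 7.87, SE 0.61, limma adjusted p = 2.8e-06). Gpr39, a zinc-sensing receptor, had 8836, 7496, 8701 and 7916 normalized reads in old macrophages, against 472, 501, 413 and 531 in old nonmacrophages (log2 difference 4.10, SE 0.11, limma adjusted p = 9.7e-09), and the macrophage values were close to each other. Among the most highly counted genes Calm2 (1.78), Atp5b (1.33) and Ckb (1.54), which serve calcium signalling and energy supply, rose. Which cells of the macrophage sort gave the reads of Chrnb3, Calm2, Atp5b and Ckb was not tested.

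On the other side stood Th, tyrosine hydroxylase, the first enzyme of catecholamine synthesis, with 0, 2.72, 0 and 0 normalized reads in old macrophages, against 362, 208, 499 and 478 in old nonmacrophages (log2 difference -8.05, SE 0.54, limma adjusted p = 1.1e-06). It was at or under the floor in 3 of 4 macrophage libraries and present in every nonmacrophage library. Cav1, the main protein of caveolae, had the smallest adjusted p of all genes that fell, with 2275, 2377, 2418 and 2612 normalized reads in old macrophages, against 31321, 25247, 25877 and 29600.5 in old nonmacrophages (log2 difference -3.53, SE 0.10, limma adjusted p = 9.7e-09). Its values differed little within each group. Lpar1, a receptor for lysophosphatidic acid, had 1228, 1022, 1040.0 and 1459.5 normalized reads in old macrophages, against 17094, 21094, 16935 and 21806 in old nonmacrophages (log2 difference -4.02, SE 0.14, limma adjusted p = 3.4e-08), and Itih2, a carrier of hyaluronan, fell to 440.0 to 581 normalized reads in old macrophages, against 5767 to 6877 in old nonmacrophages (log2 difference -3.58). Prr18 had 90.5 to 463 in macrophages and 15038 to 20564 in nonmacrophages and fell by 6.70 on the log2 scale. Dupd1 (-7.05), Susd5 (-6.94), Col23a1 (-3.66), Adgrd1 (-4.23), Cpm (-3.55), Ces1d (-2.72) and Pogk (-2.25) fell, and Nipal4, with no reads in any macrophage library and 93.4 to 178 normalized reads in nonmacrophages, was at least 78.7-fold lower in old macrophages. Of the most highly counted genes Apod, a glial lipid carrier, fell to 18005 to 29313 normalized reads in old macrophages, against 127580 to 188989 in old nonmacrophages (log2 difference -2.82, SE 0.18, limma adjusted p = 7.3e-07), and Bcas1 (-4.32), Plekhb1 (-3.49), Gpm6b (-2.90) and S100b (-2.55) fell with Mbp, several of them known from glia. The joint fit no longer called Lpar1, Cpm and Ces1d.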

How the data were processed

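Libraries were made from GFP-sorted cells, each isolate from 1 mouse, per the labels' protocols. A subset of samples was sequenced again, and which ones is not given in the sources used here. TopHat2, DESeq2 and Partek are listed with the mm10 build, and no version, per the submitters' processing notes. The authors deposited 1 signal value per gene and library, each being reads scaled by 1 factor per library, for 18639 gene symbols and 19 samples. Whether counting used strand is not given in the sources used here, so overlapping and antisense genes cannot be told apart. Spacing between low values gave back whole reads, with 99.89% of values above 0 whole within 0.1 read, and the factors lay within 0.089% of recomputed DESeq2 size factors.

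The 18272 genes that reached 1 in 2 or more of the 8 libraries were tested. The main test was limma 3.58.1 (R 4.3.3) on log2(value + 1) with trend and robust variance and Benjamini-Hochberg adjustment at 0.05. A second call used limma's treat against a 2-fold difference. Alternatives were quantile normalization, a common total, no filter or 10 in 4 samples, pseudocounts of 0.1 and 10, no trend, quality weights, 14 whole-cochlea samples fitted together, leaving out each library, and edgeR 4.0.16 (quasi-likelihood), voom and DESeq2 1.42.0 on the recovered reads, which called 10054, 10547 and 10712 genes. Replicates of a group differed by more than sampling noise in every pair, with chi-square 48.7 to 271.5 times its degrees of freedom, and none were merged. On simulated counts of 18272 genes, 67, 67 and 66 genes above a minimum mean were given 2-, 4- and 8-fold changes. Limma recovered 53.7%, 88.1% and 95.5% of these with 9 false calls, and 0%, 50.7% and 89.4% beyond 2-fold with 1 false call. Far fewer genes were changed there than the 58.3% called in the data. Both groups also had the same spread per gene there, while the common dispersion from edgeR was 0.152 in old macrophages and 0.061 in old nonmacrophages. For both reasons these rates need not hold for the data.

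Named genes were the 5 sort markers, members of 44 gene lists, and, among called genes beyond 2-fold with groups that did not overlap, a higher-group mean of 100 or more and symbols that are not predicted, clone, Rik, Gm, Xist or Y-linked names, the 15 largest differences, 10 smallest adjusted p and 10 highest means each way. The comparison, lists and rules were chosen with earlier results of these data known. Positions are from GENCODE M21 and promoters from RefSeq. No list was tested as a set. Some list members are not reported here by name, but are part of the counts.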

Additional observations from a re-analysis of the deposited data

Results flagged for a closer look

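A library lay apart from the other 3 of its group, by Dixon's ratio above its 95% critical value, in 29 of 382 group values of named genes and 6 of 88 sums of gene lists. The ratio was taken in both groups of each named gene, where the group mean was at least 100 normalized reads, and in each list, and chance alone flags about 1 in 20 groups of 4. The cause of these values was not tested.

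Nonmacrophage replicate 19 stood highest in Cxcl10 with 9173 normalized reads (69.5 to 481 in the other 3), Ccl2 with 5495 (97.3 to 191), C3 with 1043 (22.1 to 80.1), C4b with 14159 (6250.4 to 7227) and Ifit3 with 30101 (4326 to 4904), all genes that interferon or inflammatory signals are known to induce. In its summed interferon-stimulated genes it had 92285 (22178 to 26911 in the others) and in its summed chemokine ligands 50576 (27471 to 28469). Its Lpl value of 222 was the lowest (329 to 349.6).

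Nonmacrophage replicate 11 stood highest in leukocyte genes, namely Ptprc with 383 (131 to 155), Spi1 with 292 (101 to 127), Aif1 with 215 (53.9 to 71.3), Laptm5 with 1277 (402 to 549) and Cd74 with 15039 (2930.1 to 4871). Nonmacrophage replicate 10 stood highest in Acta2 with 6808 (512 to 920.1), Ctsk with 491 (422 to 426) and the summed pericyte and smooth muscle genes with 43396 (19695 to 22059), and in the summed NADPH oxidase genes with 21885 (21138 to 21207). It stood lowest in Pvalb with 2424 (3024 to 3077), Snrpn with 2327 (2676 to 2737) and Tyrobp with 122 (236 to 248). In nonmacrophage replicate 18 Coch had 95176 (71089 to 74818).

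Macrophage replicate 17 stood highest in the glial genes Bcas1 with 13613 (3510.4 to 4851), Mobp with 5496 (1184 to 1730.4) and the summed oligodendrocyte genes with 7153 (2538 to 3241), and in Snrpn with 27809 (25503 to 25818). Mobp made up most of that sum, and replicate 17 was the highest macrophage library in 4 of 16 tested oligodendrocyte genes. The same library was the highest of its group in 19 of 24 tested Schwann cell and myelin genes. It stood lowest in Trem2 with 4609.7 (8631 to 9179), Ccl4 with 14705 (18631 to 19047), Hvcn1 with 3232 (5426 to 5595) and Irak3 with 209 (455 to 500.1). Macrophage replicate 1 stood highest in Kcne1 with 11657 (3327 to 3809), Esrrb with 1760.2 (437 to 523) and the summed genes of the stria vascularis with 181408 (71066 to 80250). Macrophage replicate 12 had 411 for Clec10a (196 to 227) and 440.0 for Itih2 (566 to 581), and macrophage replicate 7 had 2851 for Cib2 (3387 to 3452).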

How the results depend on the processing

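The counts of genes that passed the test ranged from 9479 to 11254 over the alternatives, and those beyond 2-fold from 2869 to 3739, apart from the joint fit. Leaving out single libraries gave 9479 to 10703 and 2869 to 3489. Fitting the 14 whole-cochlea samples together gave 3431 genes, 1705 higher and 1726 lower, and 913 beyond 2-fold, 556 higher and 357 lower, and 3420 and 913 of these were among the calls of the 8-library fit; the cause was not tested. None of the 224 named genes with a call changed sign in the alternatives run. Of 4777 values of named genes under these alternatives 71 lost the call, 36 of them in the joint fit. Sign changes were limited to genes with no call. Sall1 had log2 differences of 0.076 with quantile normalization, 0.051 with a common total, 0.066 with quality weights, 0.10 with edgeR, 0.13 with voom and 0.089 with DESeq2. Leaving out single libraries gave Sall1 -0.18 to 0.099, Il6 -0.18 to 0.65, Ly6c2 -0.041 to 2.27 and Egr2 -0.51 to 0.14. Il6 and Ly6c2 were below 0 without macrophage replicate 7 and Egr2 above 0 without nonmacrophage replicate 11. Cxcl10 had -0.77 with edgeR and -0.77 with DESeq2. No paired analysis was run, because the labels do not say which macrophage and nonmacrophage samples came from the same animal. The replicate numbers are unique over the whole series and cannot show pairs. Depth limits the values of genes near the floor of 3 reads.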
